A study of Mus musculus with 16 samples.

Results

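The genes described here make cholesterol in mouse Th17 cells, sense it, store it and move it out. They were chosen by name from a list of 29 genes of sterol metabolism, and all 29 were found among the 15571 genes of the deposited count table. Of the 29, 19 encode enzymes of cholesterol synthesis, 8 in the arm from acetyl-CoA to the prenyl diphosphates and 11 in the arm from squalene to cholesterol. The others are 4 genes of sterol sensing, 2 of sterol transfer and esterification, and 4 of efflux and of control over uptake. All 29 also passed the filter on low counts and were among the 14985 genes tested.

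Naive CD4 T cells from spleen and lymph nodes of mice were differentiated for 3 days with IL-6 and TGFβ on antibodies to CD3 and CD28, with IFNγ blocked. Every mouse carried loxP-flanked PDH alleles (PDHfl/fl). WT mice had no Cre, and KO mice carried CD4 Cre, which acts throughout the T cell lineage, so PDH was the gene to be lost in T cells. PDH, the pyruvate dehydrogenase complex, is spelled PHD in the sample titles. Cells of each genotype were cultured without addition (untreated) or with 10 mM sodium acetate (acetate), and each of the 4 resulting groups had 4 RNA-seq libraries. No group was a control for Cre alone or for sodium, and no age is given for the mice in the labels. Nothing in the labels ties a library to its own mouse or culture, so p-values here measure a spread between libraries that may be technical. In bulk RNA, fewer cells of a type and less RNA per cell cannot be told apart.

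Cholesterol is built from acetyl-CoA in the cytosol. Mitochondria supply that acetyl-CoA as exported citrate, which in turn is fed by PDH, and acetate enters by a separate route through acetyl-CoA synthetase. When the endoplasmic reticulum runs low in sterol, SCAP escorts the transcription factor SREBP2 to the Golgi, where it is cut free to switch on the synthesis genes, and INSIG proteins hold the pair back when sterol is plentiful. Surplus sterol, as oxysterols, activates the LXR receptors, which switch on efflux pumps and a ligase that removes lipoprotein receptors. Activated T cells raise synthesis to build membranes.

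Library totals lay between 24.57 and 33.72 M estimated counts. The T cell genes Cd3e, Cd3d, Cd4, Trac and Thy1 summed to 1600 to 1670 CPM (counts scaled to library size) in WT untreated, 1200 to 1370 in KO untreated, 1490 to 1610 in WT acetate and 1280 to 1460 in KO acetate libraries. Cd3d, Cd4, Trac and Thy1 were lower in KO than in WT untreated cells by edgeR. Cd3e was not called (log2 fold change 0.02, edgeR adjusted p = 0.847). The part of these T cell genes in the genotype differences given here was not tested. Markers of other cells that are in the table summed to at most 5.64 CPM for B cells (5 of 5 genes), 4.7 CPM for macrophages (3 of 6), 8.19 CPM for NK cells (1 of 4) and 5.8 CPM for dendritic cells (2 of 5). Cd8a and Cd8b1 together stood at 9.08 to 11.2 CPM in WT untreated, 5.13 to 8.35 CPM in KO untreated and 13.1 to 18.2 CPM in the acetate libraries. The part of Cd8a and Cd8b1 in the differences given here was not tested. In 4 libraries (WT untreated 1, KO untreated 1 and 2, KO acetate 2) a single gene without a name in the reference took over 3% of counts, and these are called the high-share libraries.

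**Figure D1:**
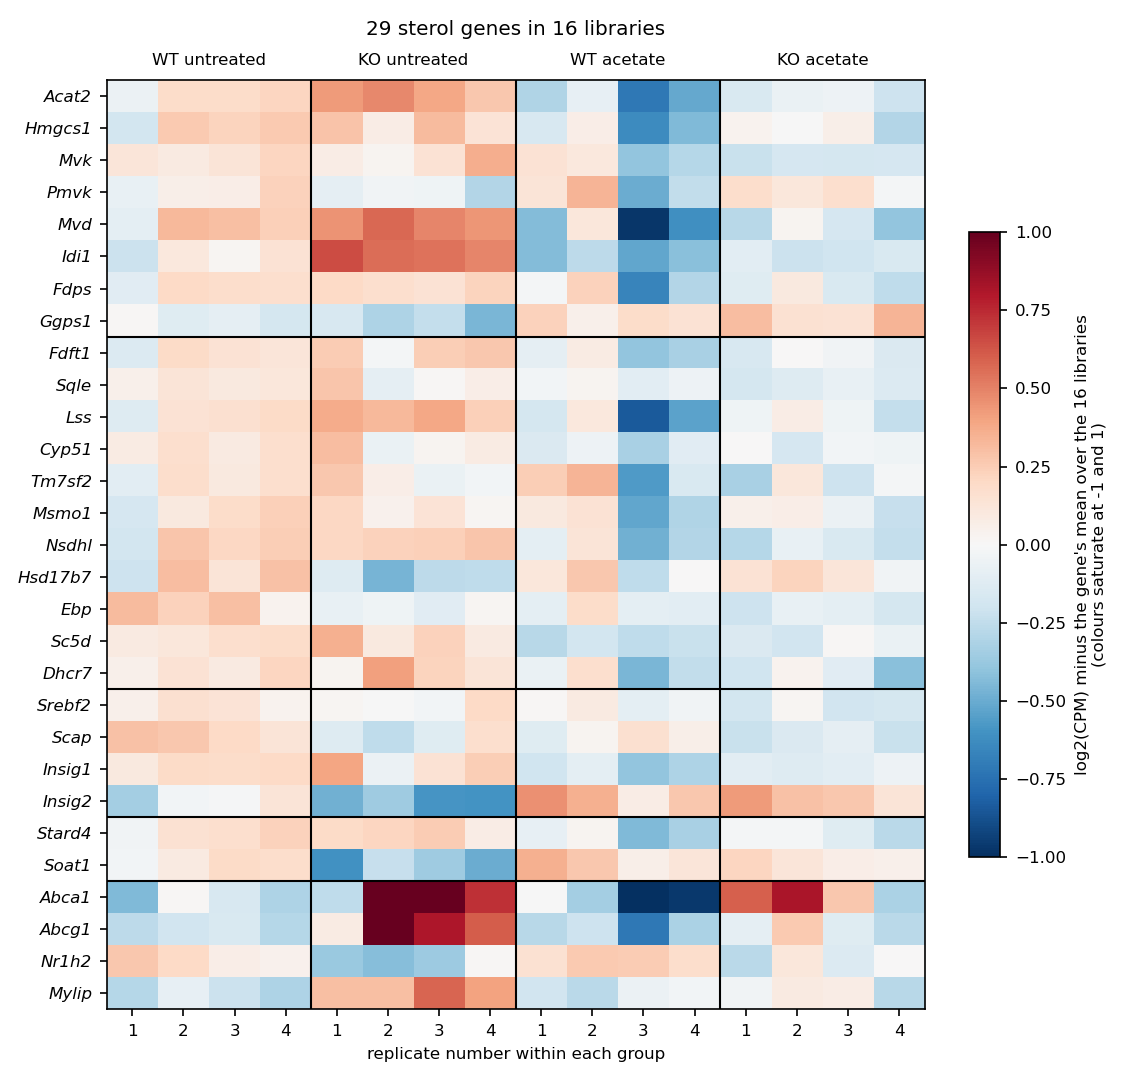
Each row is 1 of the 29 genes and each column 1 of the 16 libraries; colour gives log2(CPM) minus the gene's mean over all libraries, and lines part the gene groups (8 and 11 synthesis enzymes, 4 sensing, 2 transfer and storage, 4 efflux and uptake) and the 4 sample groups. Most enzymes are paler or blue with acetate, Ggps1 and Insig2 are red there, and Abcg1 is reddest in KO untreated libraries 2, 3 and 4.

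The comparison of acetate with untreated cells asked how the pathway stood when acetate was supplied, in WT and in KO cells. Transcripts of part of the synthesis pathway were lower with acetate in both genotypes. In KO cells 10 of the 19 enzymes fell and 2 rose, against 21.6% of all genes lower and 22.1% higher (43.7% in either direction), and the median log2 fold change was −0.28 against −0.01 over all genes tested. In WT cells 7 enzymes fell and 1 rose, against 7.55% of all genes lower and 7.89% higher (15.4% in either direction), with a median of −0.26 against 0.00. The enzymes that fell in both were Acat2, Mvd, Idi1 and Sc5d, and those 2 comparisons share no library. Over all 29 members the libraries of KO acetate lay wholly below those of KO untreated for 11 and wholly above for 5 (18.7% and 19% of all genes), and in WT cells for 6 and 1 (10.7% and 10.6%). No enzyme differed in its acetate response between the genotypes by the interaction test, although 11.9% of all genes did (6.37% higher and 5.54% lower in KO cells). At an unadjusted p under 0.05 in edgeR 3 enzymes did, against 3978 of the 14985 genes, and DESeq2 called Idi1 and Hsd17b7. The Ggps1 interaction (0.28, adjusted p = 0.0749) passed with a replicate block over all 16 libraries (0.28, 0.0433) and with the unnamed gene left out of library totals (0.35, 0.0298).

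Idi1, which turns isopentenyl diphosphate into its reactive isomer, showed the largest fall among the enzymes in KO cells. Its library values were 898, 840.1, 832 and 799.9 CPM in KO untreated and 529, 492, 497 and 513 CPM in KO acetate cells. The groups lay far apart, and the log2 fold change was −0.73 (SE 0.0757, edgeR adjusted p = 4.21e-07). In WT cells Idi1 went from 491, 613, 579 and 631 CPM to 423, 477, 399 and 426 CPM, again without overlap (−0.42, SE 0.0754, edgeR adjusted p = 0.000943). The interaction, how far the acetate response of KO exceeded that of WT, was −0.31 with an edgeR adjusted p of 0.068 (DESeq2 0.0261).

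Acat2, the cytosolic thiolase that joins acetyl-CoA units in the first step, stood at 160.1, 166, 156 and 143 CPM in KO untreated and 107, 114, 115 and 103 CPM in KO acetate cells. In WT cells it stood at 114, 135, 135 and 138 CPM without and 96.8, 112, 72.7 and 83.4 CPM with acetate. All 4 acetate libraries lay below all 4 untreated libraries in each genotype, and the falls were (−0.51 and −0.52 on the log2 scale, with an interaction of 0.00, 95% interval −0.27 to 0.28). The same held for Sc5d, the desaturase of a late step, at 129.8, 109, 119.5 and 108 against 91.8, 89.2, 102 and 97 CPM in KO and 108, 109.9, 114 and 116 against 84.1, 89.4, 85.5 and 87.2 CPM in WT cells. Its log2 fold changes were −0.29 and −0.37 (edgeR adjusted p = 0.000755 and 0.00052).

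Among the other enzymes of the prenyl arm, Mvd, which decarboxylates mevalonate diphosphate, fell 1.61-fold in KO cells (means 96.1 ± 3.97 and 59.9 ± 7.56 CPM) and 1.54-fold in WT cells (78.7 ± 9.93 and 51.1 ± 16.7 CPM, SD, n = 4). Mvk, mevalonate kinase, fell in KO cells (−0.34) and stood at −0.23 in WT cells (edgeR adjusted p = 0.16). Hmgcs1, the synthase that makes HMG-CoA, fell in WT cells (−0.42, adjusted p = 0.0441) and stood at −0.25 in KO cells (adjusted p = 0.14). Fdps, farnesyl diphosphate synthase, stood at −0.26 and −0.29 and passed the test in neither genotype. Libraries of the KO comparison were taken as paired by replicate number, which no label states (processing notes). With a replicate block fitted to those 2 groups 12 enzymes fell and 3 rose, where 3339 and 3413 of 14315 genes did. Fdps (edgeR adjusted p = 0.00514) and Hmgcs1 (0.0106) then passed in KO cells. The fit of those groups without a block called both as well (0.0105 and 0.0445), and a block over all 16 libraries called neither (0.0759 and 0.167).

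In the arm from squalene on, 6 of 11 enzymes fell in KO cells, where 21.6% of all genes fell. They were Fdft1 (squalene synthase, −0.28), Sqle (squalene epoxidase, −0.20), Lss (lanosterol synthase, −0.39), Nsdhl (a sterol dehydrogenase, −0.42), Sc5d and Dhcr7 (a reductase of the last steps, −0.37). In WT cells 3 of 11 fell (7.55% of all genes did), Sc5d, Cyp51 (lanosterol demethylase, −0.28) and Ebp (a sterol isomerase, −0.25). The enzymes that passed in neither were Tm7sf2, a sterol reductase (−0.08 in WT and −0.17 in KO cells), and Msmo1, a methylsterol oxidase (−0.21 and −0.14).

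**Figure D2:**
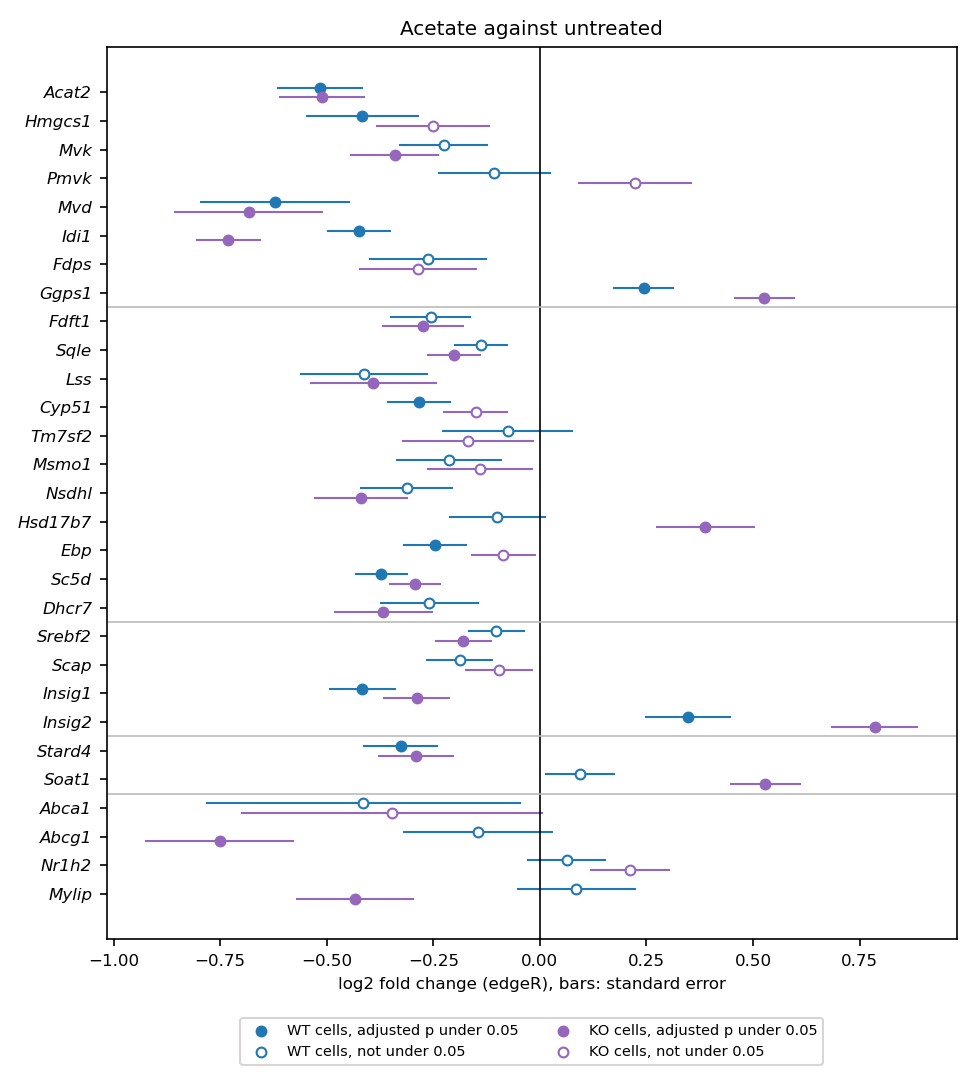
Rows are the 29 genes in pathway order; points give the edgeR log2 fold change of acetate against untreated cells in WT (blue) and KO (purple) cells, bars the standard error, and filled points an adjusted p under 0.05. Enzymes lie mostly left of 0, while Ggps1 and Insig2 lie right of it in both genotypes.

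How many enzymes fell depended on scaling. With library totals alone, 4 enzymes fell in KO cells (Acat2, Mvd, Idi1 and Nsdhl) and 3 in WT cells (Acat2, Idi1 and Sc5d), and over all genes the split of higher and lower calls went from 3314 and 3236 to 4229 and 2085 in KO cells and from 1183 and 1132 to 1196 and 558 in WT cells. The median of all genes in KO cells moved from −0.01 to 0.09, and the enzymes' median from −0.28 to −0.17. With the unnamed gene taken out of the totals 5 enzymes fell in KO cells. Idi1 and Acat2 fell in both genotypes under every alternative run. In the KO comparison calls were lost on leaving out 1 library for Fdft1 without any 1 of KO untreated 1, 3 or 4 and KO acetate 1 or 4 (log2 fold change −0.27 to −0.25), Lss without any 1 of KO untreated 1, 2 or 3 and KO acetate 1, 3 or 4 (log2 fold change −0.40 to −0.33), Sqle without KO untreated 1 (log2 fold change −0.14) and Dhcr7 without KO acetate 4 (log2 fold change −0.29).

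The WT acetate libraries were not of one kind. The mean over the 19 enzymes of log2(CPM), taken relative to all 16 libraries, was −0.07 and 0.09 in WT acetate 1 and 2 and −0.45 and −0.26 in WT acetate 3 and 4. KO acetate libraries lay between −0.15 and −0.01, KO untreated libraries between 0.11 and 0.21, and WT untreated libraries at −0.05 for library 1 and 0.14 to 0.17 for the others. For 15 of 19 enzymes WT acetate 1 and 2 both exceeded 3 and 4, which was so for 31.1% of all genes tested. Without WT acetate 3 and 4, 3 enzymes fell with acetate in WT cells (Acat2, Idi1 and Sc5d), none rose, and the median was −0.10. Leaving out WT acetate 2 alone gave 12 enzymes that fell, and leaving out any one of WT untreated 2 or 3 or WT acetate 1 or 4 gave 4. Among single enzymes, calls were lost for Hmgcs1 without any 1 of WT untreated 2, 3 or 4 and WT acetate 1, 3 or 4 (log2 fold change −0.45 to −0.31), Mvd without any 1 of WT untreated 2, 3 or 4 and WT acetate 1 or 4 (log2 fold change −0.62 to −0.56) and Ebp without any 1 of WT untreated 1, 2 or 3 and WT acetate 1, 3 or 4 (log2 fold change −0.25 to −0.22).

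**Figure D3:**
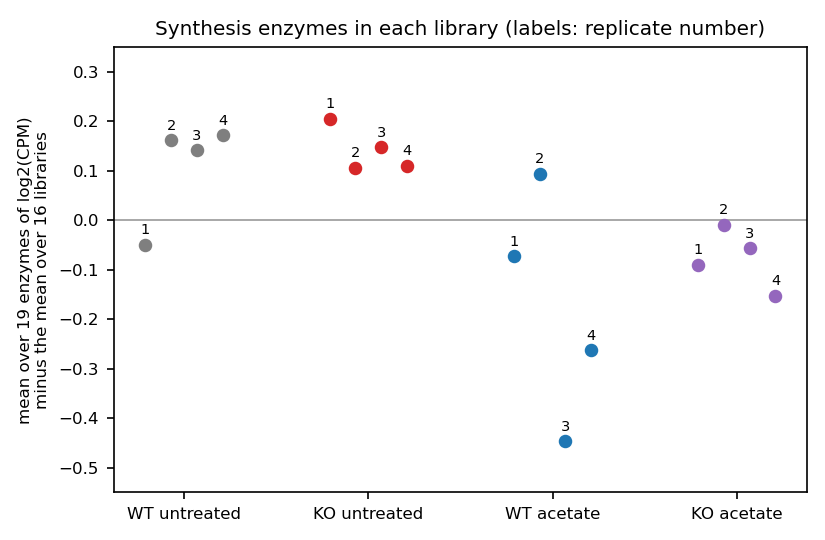
Points are the 16 libraries by group, numbered by replicate; the vertical axis is the mean over 19 enzymes of log2(CPM) minus each enzyme's mean over all libraries. WT acetate 3 and 4 lie lowest, and WT untreated 1 lies below the other 3 libraries of its group.

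A few enzymes went against the rest. Ggps1 makes geranylgeranyl diphosphate, the lipid that is attached to small GTPases, and so draws prenyl units away from sterol. It rose with acetate in KO cells, from 33.5, 30.2, 31.8 and 27.3 CPM to 46.4, 41.6, 41.5 and 47.4 CPM, with no overlap (0.53, SE 0.0716, edgeR adjusted p = 1.03e-05). In WT cells it rose from 37.9, 34.5, 35.3 and 33.3 to 43.9, 38.9, 42.5 and 41.6 CPM (0.24, edgeR adjusted p = 0.0259), a call lost without any 1 of WT untreated 2, 3 or 4 and WT acetate 1, 3 or 4 (log2 fold change 0.22 to 0.25). Because Idi1 fell while Ggps1 rose, the ratio of their counts within a library, which no scaling can alter, was 26.2 to 29.3 in KO untreated, 13 to 19 in WT untreated, 10.8 to 12 in KO acetate and 9.38 to 12.3 in WT acetate libraries. That pair was chosen after its values were seen and was not tested.

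Hsd17b7, a ketosteroid reductase of the demethylation steps, rose with acetate in KO cells, where it was at 46.9, 37.1, 42.8 and 43.1 CPM without and 56.7, 59.8, 55.7 and 50.0 CPM with acetate (0.39, SE 0.116, edgeR adjusted p = 0.0112). In WT cells it was at 44.4, 63.4, 56.2 and 63 and 55.5, 61.9, 43 and 51.4 CPM, with overlap (−0.10, adjusted p = 0.626). The interaction was 0.49 (edgeR adjusted p = 0.0594) and passed in DESeq2 (0.0302), without scaling (0.55, 0.0497) and on leaving out any one of WT untreated 1, WT acetate 2, KO untreated 1 or KO acetate 4 (0.53 to 0.58). Pmvk, phosphomevalonate kinase, stood at 46.9 ± 3.74 and 54.8 ± 3.45 CPM in KO cells and 53.4 ± 4.69 and 49.6 ± 12.6 CPM in WT cells without and with acetate and was called in neither. Its KO value of 0.22 passed when the 2 groups were fitted alone, without a replicate block (adjusted p = 0.03) and with one (0.00796), and not with a block over all 16 libraries (0.197).

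Of the sterol sensors, the INSIG genes moved in opposite directions with acetate. Insig1 (ENSMUSG00000045294.12), itself a target of SREBP2, fell in WT cells from 133, 142, 141 and 142 CPM to 108, 116, 94.1 and 100.1 CPM (−0.42, SE 0.0782, edgeR adjusted p = 0.00146). In KO cells it fell from 162, 119, 137 and 147 CPM to 115, 113, 115 and 119 CPM (−0.29, adjusted p = 0.0056), where libraries overlapped and the call was lost without scaling (−0.18, 0.0873). All 4 WT acetate libraries lay below all 4 WT untreated libraries.

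Insig2 (ENSMUSG00000003721.15), the form that SREBP2 does not induce, rose in KO cells from 15.1, 16.4, 14 and 13.9 CPM to 28.3, 25.8, 25.3 and 23.1 CPM (0.79, SE 0.102, edgeR adjusted p = 6.17e-06). In WT cells its values were 16.6, 20.7, 20.9 and 23 CPM without and 28.8, 27, 22.1 and 25.4 CPM with acetate (0.35, adjusted p = 0.0242), and WT acetate 3 lay below WT untreated 4. The WT call was lost without any 1 of WT untreated 1 and WT acetate 1 or 2 (log2 fold change 0.26 to 0.33) and without the high-share libraries. The interaction was 0.44 (adjusted p = 0.0526), and it passed in DESeq2 (0.0326), with a replicate block over all 16 libraries (0.0487) and without the high-share libraries (0.61, 0.0248). The ratio of Insig1 to Insig2 counts within a library was 6.19 to 8 in WT untreated, 7.23 to 10.8 in KO untreated, 3.75 to 4.29 in WT acetate and 4.06 to 5.18 in KO acetate libraries, so every acetate library lay below every untreated one. This ratio too was chosen after its values were seen.

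Srebf2, which encodes SREBP2, moved little. Its means were 464 ± 20.6 and 433 ± 24.1 CPM in WT cells and 448 ± 33.1 and 396 ± 29.1 CPM in KO cells without and with acetate (SD, n = 4). The KO fall of −0.18 (edgeR adjusted p = 0.0387) was lost when the 2 groups were fitted alone, without a replicate block and with one (adjusted p = 0.0621 with it), and kept with a block over all 16 libraries (0.027). It was also lost without scaling (−0.08, 0.432) and without any 1 of KO untreated 4 and KO acetate 1, 3 or 4 (log2 fold change −0.16 to −0.14). Scap, the escort, was called with acetate in neither genotype (−0.19 in WT and −0.10 in KO cells).

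Promoter sequences were set beside these changes because SREBP2 acts together with NF-Y, the factor that binds the CCAAT box. RefSeq promoter windows on GRCm38.p6, 250 bases before to 50 after a start site, were found for 24 of the 29 genes. Abcg1, Fdft1, Fdps, Sqle and Stard4 had no window and were not searched. CCAAT on either strand was in a window of 15 of the 16 enzyme genes with a window (not Acat2) and 20 of the 24 members, against 41.1% of all 27025 genes with windows and 43.0% of the 10389 tested genes with one. The sterol element TCACNCCAC was in 1 member, Hmgcs1, and in 1.44% of all genes and 1.33% of the tested genes with a window. Only this rare string was searched, so its absence from a window does not show that a gene lacks control by SREBP2. The LXR element DR4, the hexamer AGGTCA given again after a gap of 4 bases, was in no member window and in 0.0148% of all genes. So rare a string would hardly be met among 24 genes, so its absence tells nothing about LXR control. The E-box CACGTG was in 6 of 24 members, against 8.09% of all genes and 11.6% of the tested genes with a window. A match says only that these letters are present. Below are 220 bases upstream of the start, read along the gene 5′ to 3′ with CCAAT (or ATTGG on the other strand) and the sterol element in capitals, which do not overlap each other here. The first 4 genes are Hmgcs1, which carries the sterol element and fell in WT cells, and Idi1, Sc5d and Insig1, which fell with acetate in both genotypes. The other 4 rose with acetate in KO cells.
Hmgcs1 (chr13:119690131-119690350, plus strand): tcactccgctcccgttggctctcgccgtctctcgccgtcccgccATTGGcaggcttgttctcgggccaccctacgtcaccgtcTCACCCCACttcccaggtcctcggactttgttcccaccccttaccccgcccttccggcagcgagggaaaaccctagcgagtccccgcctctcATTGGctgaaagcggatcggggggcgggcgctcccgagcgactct
Idi1 (chr13:8885386-8885605, plus strand): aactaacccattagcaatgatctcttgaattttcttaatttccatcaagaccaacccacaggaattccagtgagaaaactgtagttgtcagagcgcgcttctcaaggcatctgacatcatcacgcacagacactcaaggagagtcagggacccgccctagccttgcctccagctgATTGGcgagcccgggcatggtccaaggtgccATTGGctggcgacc
Sc5d (chr9:42264301-42264520, minus strand): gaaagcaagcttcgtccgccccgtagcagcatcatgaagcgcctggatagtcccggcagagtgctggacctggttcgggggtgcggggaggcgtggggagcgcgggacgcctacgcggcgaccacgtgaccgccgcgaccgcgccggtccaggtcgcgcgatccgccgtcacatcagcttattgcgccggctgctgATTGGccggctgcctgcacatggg
Insig1 (chr5:28071192-28071411, plus strand): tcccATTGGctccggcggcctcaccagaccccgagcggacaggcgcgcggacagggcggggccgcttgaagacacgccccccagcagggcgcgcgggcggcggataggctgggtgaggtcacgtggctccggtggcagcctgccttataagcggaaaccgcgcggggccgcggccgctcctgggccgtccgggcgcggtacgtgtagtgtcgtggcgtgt
Ggps1 (chr13:14063489-14063708, minus strand): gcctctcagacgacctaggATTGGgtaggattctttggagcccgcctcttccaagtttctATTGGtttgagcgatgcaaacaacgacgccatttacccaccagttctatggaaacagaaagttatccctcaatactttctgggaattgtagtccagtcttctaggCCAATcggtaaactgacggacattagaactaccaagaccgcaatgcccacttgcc
Hsd17b7 (chr1:169969206-169969425, minus strand): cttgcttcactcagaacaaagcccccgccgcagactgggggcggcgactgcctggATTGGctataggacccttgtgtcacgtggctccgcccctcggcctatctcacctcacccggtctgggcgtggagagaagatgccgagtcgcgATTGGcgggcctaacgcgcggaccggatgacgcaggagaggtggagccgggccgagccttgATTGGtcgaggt
Soat1 (chr1:156474329-156474548, minus strand): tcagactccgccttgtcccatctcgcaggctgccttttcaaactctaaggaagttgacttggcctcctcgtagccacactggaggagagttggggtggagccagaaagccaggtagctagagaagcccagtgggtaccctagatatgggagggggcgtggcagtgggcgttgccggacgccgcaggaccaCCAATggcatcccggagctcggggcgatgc
Insig2, the most upstream of its 3 windows (chr1:121332590-121332809, minus strand): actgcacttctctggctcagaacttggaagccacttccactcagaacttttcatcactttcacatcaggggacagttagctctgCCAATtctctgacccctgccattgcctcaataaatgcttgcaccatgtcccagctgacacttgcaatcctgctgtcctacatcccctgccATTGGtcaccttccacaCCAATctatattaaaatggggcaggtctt
Each of these 8 chosen stretches holds at least 1 CCAAT box, although Acat2, which fell in both genotypes, has none in its window and Insig2 has it in 1 of its 3 windows.

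Setting untreated KO against untreated WT cells asked whether loss of PDH was accompanied by a change in the same genes. This comparison and that of acetate in KO cells use the same KO untreated libraries. A gene called in opposite directions in them is therefore not 2 independent results. Of 19 enzymes, 1 was higher (Idi1) and 3 lower (Ggps1, Hsd17b7 and Ebp) in KO cells, while 36.6% of all genes differed, 18.0% higher and 18.6% lower. The count of higher enzymes depended on the fit: with the 2 groups fitted alone, with or without a replicate block, Acat2, Lss and Mvd were higher too, giving 4 higher and 3 lower, and without a block 2858 of 14129 genes were then higher and 2833 lower. Libraries lay wholly above those of WT for 6 members and wholly below for 4, against 17.9% and 18.2% of all genes. The enzymes' median log2 fold change was 0.06 against 0.01 for all genes. Idi1, from the library values above, was 1.46-fold higher in KO cells with no overlap (0.54, SE 0.0755, edgeR adjusted p = 2.59e-05). Acat2 was also higher in all 4 KO libraries but missed the threshold (0.26, adjusted p = 0.0505), which it passed in DESeq2 (0.0363) and in 8 other alternatives. Among all genes, scaling by library totals changed the split of higher and lower calls from 2699 and 2782 to 1914 and 3217.

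Ebp was lower in every KO untreated library, at 36.1, 37, 35.1 and 38.6 CPM against 47.5, 44.6, 47 and 39 CPM in WT untreated (−0.28, edgeR adjusted p = 0.00735). Hsd17b7 was 1.34-fold lower with overlap of WT untreated 1 (adjusted p = 0.00886), and Ggps1 was lower as well (−0.20, adjusted p = 0.0369), a call lost without any 1 of WT untreated 1, 2 or 3 and KO untreated 2, 3 or 4 (log2 fold change −0.21 to −0.14). Without the high-share libraries Ebp (−0.24, 0.104) and Ggps1 (−0.22, 0.0939) were not called, with 2 KO libraries left. Among the sensors, Insig2 was 1.37-fold lower in KO cells with no overlap (−0.45, adjusted p = 0.00213). Scap was lower, at 73.8, 67.8, 74.3 and 90.9 against 98.9, 97.5, 92.5 and 88.1 CPM, with KO untreated 4 inside the WT range (−0.30, adjusted p = 0.00659), and was not called without the high-share libraries (−0.17, 0.236). Srebf2 (−0.05, 95% interval −0.18 to 0.08) and Insig1 (0.02, −0.13 to 0.17) were not called.

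**Figure D4:**
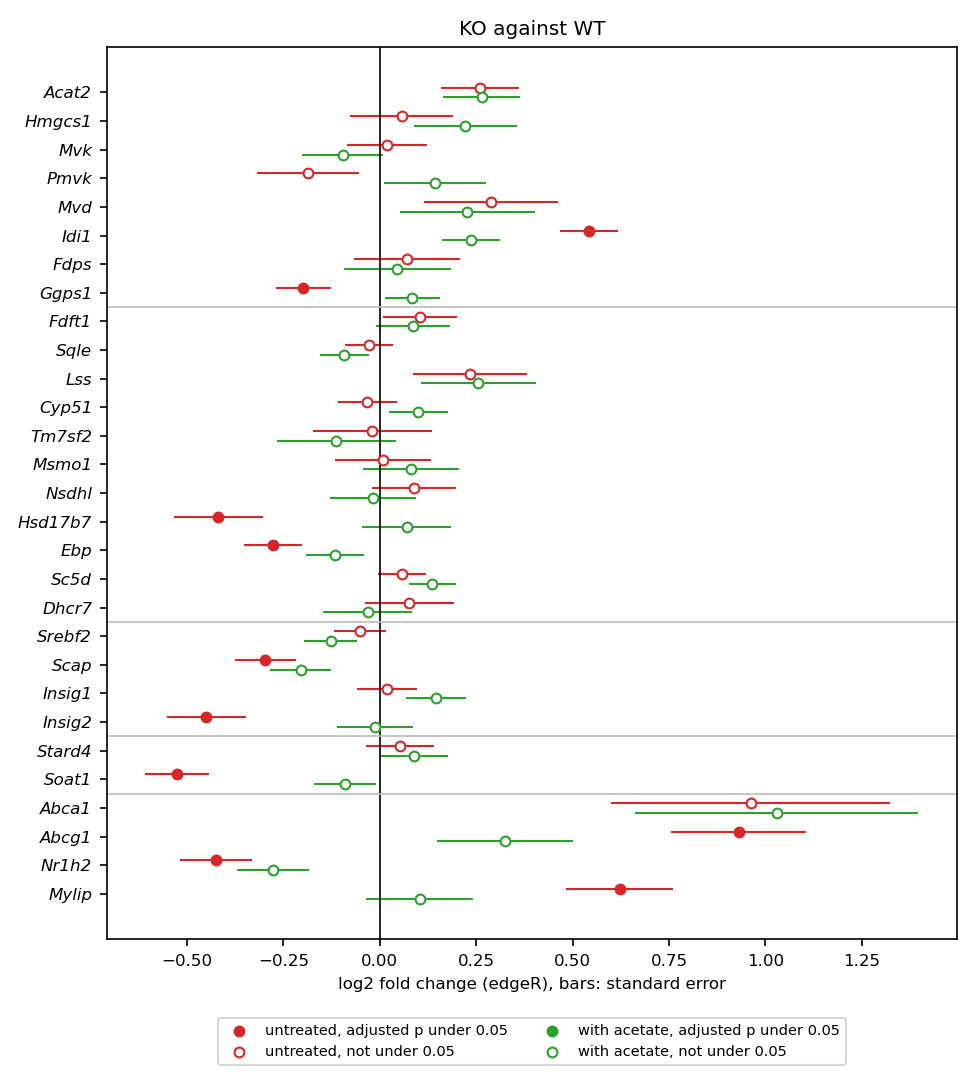
Rows are the 29 genes; points give the edgeR log2 fold change of KO against WT cells without acetate (red) and with it (green), bars the standard error, and filled points an adjusted p under 0.05. Without acetate Idi1, Abcg1 and Mylip lie to the right and Soat1, Insig2, Nr1h2 and Hsd17b7 to the left; no point is filled with acetate.

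Soat1, which esterifies cholesterol for storage in lipid droplets, was the 1 member of 29 whose acetate response differed between the genotypes by the test. Among all genes 11.9% did, 6.37% higher and 5.54% lower in KO cells. Without acetate it stood at 44, 47.7, 51.2 and 50.6 CPM in WT and 29.5, 38.1, 35 and 31.7 CPM in KO cells. With acetate it stood at 57.2, 54, 46.6 and 48.7 CPM in WT and 51.9, 48.7, 47 and 46.4 CPM in KO cells. The KO untreated libraries lay below all 12 others. The log2 fold change was −0.53 for KO against WT untreated (SE 0.0822, edgeR adjusted p = 8.13e-05) and 0.53 for acetate in KO cells (SE 0.0823, adjusted p = 4.24e-05), and both values rest on the same KO untreated libraries. In WT cells acetate gave 0.09 (adjusted p = 0.497). The interaction of 0.44 (SE 0.116, adjusted p = 0.0197) was no longer called without WT acetate 3 and 4 (0.33, 0.0938).

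Stard4, which carries free cholesterol between membranes and is a known SREBP2 target, moved with the enzymes. Its means were 167 ± 12.7 and 133 ± 19.6 CPM in WT and 173 ± 8.96 and 141 ± 11.1 CPM in KO cells without and with acetate (SD, n = 4). It fell 1.25-fold in WT and 1.22-fold in KO cells (edgeR adjusted p = 0.0169 and 0.0122). Both calls were lost without scaling (0.0768 and 0.145), and the WT call also without any 1 of WT untreated 4 and WT acetate 3 or 4 (log2 fold change −0.29 to −0.25). No genotype difference was called (untreated 0.05, 95% interval −0.12 to 0.22).

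The genes of efflux and uptake were set beside the enzymes. Of the 4 genes of efflux and uptake control, 2 were higher and 1 lower in KO untreated cells, against 18.0% and 18.6% of all genes. Their median was 0.78 against 0.06 for the enzymes, a difference described here and not tested. Abcg1, a pump that passes cholesterol to lipoprotein particles, was at 23.1, 48, 38.3 and 33.3 CPM in KO and 18.2, 19.1, 19.6 and 17.9 CPM in WT untreated cells. Every KO library lay above every WT library, with KO untreated 1 nearest (0.93, SE 0.175, edgeR adjusted p = 0.00071). Mylip, the ligase that marks lipoprotein receptors for destruction, was at 4.08, 4.08, 4.96 and 4.37 against 2.72, 3.12, 2.85 and 2.67 CPM, also without overlap (0.62, SE 0.139, adjusted p = 0.00184). The dendritic cell genes Flt3 and Zbtb46 summed to 1.84 to 5.8 CPM in KO and 1.1 to 1.58 CPM in WT untreated libraries, and their part in these differences was not tested.

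Abca1, the pump that loads cholesterol onto apolipoproteins, was at 7.58, 20.1, 18 and 15 CPM in KO and 6.67, 9.12, 8.08 and 7.30 CPM in WT untreated cells. KO untreated 2, 3 and 4 lay above all WT libraries, KO untreated 1 lay inside the WT range, and the difference missed the threshold (0.96, SE 0.361, edgeR adjusted p = 0.0518). It passed without KO untreated 1 (1.18, 0.014) and in DESeq2 (0.0305). Nr1h2, which encodes LXRβ, the receptor that drives these genes, was lower in KO cells, at 39.6, 38.2, 39.8 and 51.8 against 62, 58.9, 53.7 and 53 CPM. No library overlapped (−0.43, SE 0.0933, adjusted p = 0.00164), and without the high-share libraries the value was −0.27 (0.0815).

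With acetate in KO cells Abcg1 fell to 20.5, 26.1, 20.1 and 18.1 CPM (−0.75, SE 0.174, edgeR adjusted p = 0.00243), KO acetate 2 lying above KO untreated 1. Mylip fell to 3.23, 3.51, 3.48 and 2.73 CPM (−0.43, adjusted p = 0.0161), a call lost without scaling (−0.34, 0.098) and without any 1 of KO untreated 3 and KO acetate 4 (log2 fold change −0.38 to −0.36). Abca1 (−0.35, adjusted p = 0.465) and Nr1h2 (0.21, 0.0746) were not called, so 2 of the 4 genes fell and none rose, with a median of −0.39 beside −0.28 for the enzymes. Among all genes 21.6% fell and 22.1% rose. Nr1h2 was called higher without scaling (0.31, 0.00849), with totals that leave out the unnamed gene (0.31, 0.00619) and at a mean of at least 5 CPM (0.22, 0.0491). It was also called higher without KO acetate 1 (0.28, 0.0271) and without KO untreated 4 (0.31, 0.00557). In WT cells none of the 4 genes was called with acetate, where 15.4% of all genes were, and the median was −0.04, beside −0.26 for the enzymes. Abcg1 stood at −0.14 there, and its interaction of −0.61 (adjusted p = 0.126) passed without KO untreated 1 (−0.77, 0.0131) and without the high-share libraries (−0.71, 0.0195). Mylip stood at 0.09 in WT cells, with an interaction of −0.52 (adjusted p = 0.093).

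**Figure D5:**
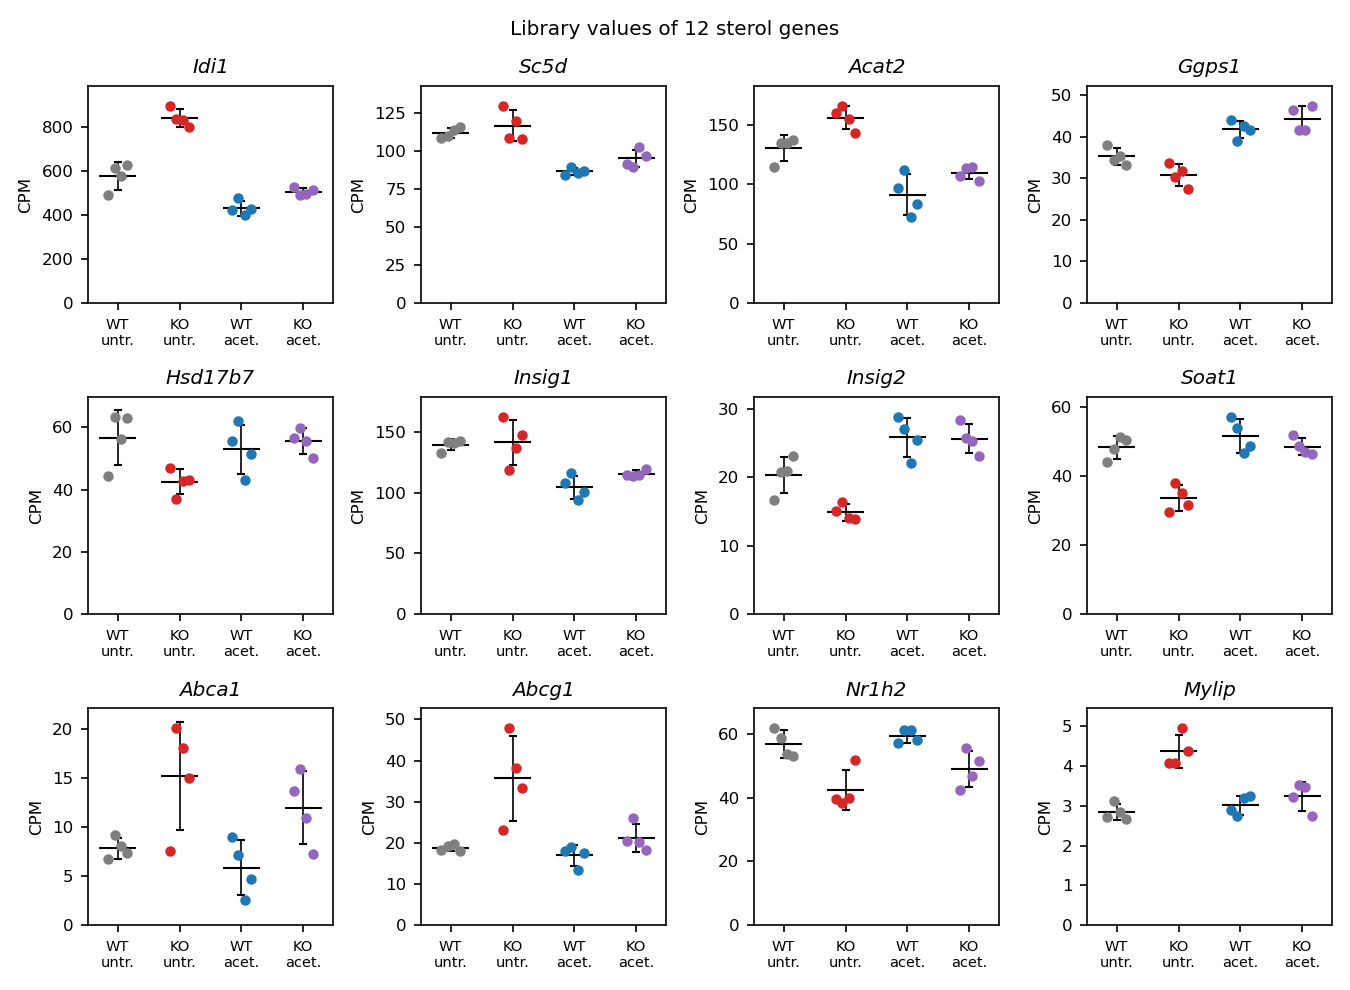
Each panel is 1 gene, with CPM on the vertical axis from 0, a point for each of the 4 libraries of a group, a line at the mean and bars of 1 SD. KO untreated libraries are highest for Idi1 and Mylip and lowest for Soat1 and Insig2.

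With acetate present in both genotypes no member was called, 0 of 29, against 1.00% of all genes, 0.487% higher and 0.514% lower in KO cells. That background itself rested on single libraries, with 12 genes higher and 9 lower without WT acetate 3 and 236 and 425 without KO acetate 2. Libraries lay wholly apart for Idi1, higher in KO, and Nr1h2, lower in KO (4.50% and 4.86% of all genes). At an unadjusted p under 0.05 there were 6 members of 29 by edgeR, against 2762 of 14985 genes, and DESeq2 called 1, Idi1. These libraries were taken as paired by replicate number, although WT acetate 3 and 4 each correlated more with a KO acetate library of another number (processing notes). With a replicate block fitted to the 2 groups alone Idi1 was higher (0.24, adjusted p = 0.0471) and Nr1h2 (−0.28, 0.027) and Scap (−0.20, 0.0472) were lower in KO acetate cells. With the block over all 16 libraries none of these was called (0.0868, 0.102 and 0.16). Soat1 differed by −0.09 (95% interval −0.25 to 0.07), Insig2 by −0.01 (−0.21 to 0.18), and Abcg1 by 0.32 (−0.02 to 0.67). Abca1 differed by 1.03, with an interval of 0.31 to 1.75 before adjustment and an edgeR adjusted p of 0.16. Its libraries were 13.7, 15.9, 10.9 and 7.28 CPM in KO and 9, 7.16, 2.60 and 4.63 CPM in WT acetate cells, with WT acetate 3 and 4 lowest and the groups overlapping.

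KO acetate cells were also set against WT untreated cells, the group without deletion or addition. Here 5 of 19 enzymes were lower (Mvk, Sqle, Nsdhl, Ebp and Sc5d, between −0.36 and −0.23) and Ggps1 was higher (0.33, edgeR adjusted p = 0.00255), against 13.5% and 12.9% of all genes (26.4% in either direction). Libraries lay wholly below for 9 members and wholly above for 2, against 14.2% of all genes each way. All 4 sensors were called. Srebf2 (−0.23), Scap (−0.39) and Insig1 (−0.27) were lower and Insig2 higher (0.34), each without overlap between the libraries. Without scaling Srebf2 (−0.19, 0.0819) and Insig1 (−0.23, 0.0556) were not called, and Insig2 was not called without the high-share libraries (0.24, 0.114) or with a replicate block fitted to the 2 groups (0.33, 0.0629). Soat1 stood at 0.00 (95% interval −0.16 to 0.16), and none of the 4 efflux and uptake genes was called. Without scaling 1 enzyme was lower, Ebp, and DESeq2 had 10. Calls were lost on leaving out 1 library for Mvk without any 1 of WT untreated 3 or 4 and KO acetate 1 or 3 (log2 fold change −0.33 to −0.30), Nsdhl without any 1 of WT untreated 2, 3 or 4 and KO acetate 1, 3 or 4 (log2 fold change −0.34 to −0.29), Srebf2 without any 1 of WT untreated 2 and KO acetate 3 (log2 fold change −0.21) and Insig2 without any 1 of WT untreated 1 and KO acetate 1 (log2 fold change 0.24 to 0.28).

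Other genes of sterol handling were read from a list of 26, of which 24 were tested. In KO untreated cells 3 were higher and 9 lower than in WT, against 18.0% and 18.6% of all genes. The lower ones included Gramd1b, which moves cholesterol from the plasma membrane to the endoplasmic reticulum (218 to 143 CPM), the lipoprotein receptor Scarb1 (−0.55), and Osbp (−0.35) and Osbpl9 (−0.60), oxysterol-binding proteins. With acetate 7 rose and 4 fell in KO cells, where 43.7% of all genes were called, and 2 rose and 1 fell in WT cells, where 15.4% were. Gramd1b rose 2-fold in KO and 1.16-fold in WT cells, and the difference between the genotypes passed the interaction test (0.79, edgeR adjusted p = 5.89e-05). Lipa, the lysosomal lipase that frees cholesterol from its esters, rose in KO (0.58) and WT cells (0.44), and Lbr, a sterol reductase of the nuclear envelope, fell in both (−0.42 and −0.27).

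Among 12 genes that use prenyl diphosphates, 5 were higher and 2 lower in KO untreated cells, where 36.6% of all genes were called. Coq2, which attaches the prenyl tail of ubiquinone, was higher (0.48), as was Srd5a3, which completes dolichol (0.62). With acetate 2 rose and 4 fell in KO cells (43.7% of all genes called) and 1 rose and 2 fell in WT cells (15.4%). Srd5a3 fell in both (−1.17 and −0.43), and Rabggtb, a subunit of the enzyme that attaches geranylgeranyl to Rab proteins, rose in both (0.47 and 0.28). Of 13 tested fatty acid genes of the SREBP1 programme, 7 fell with acetate in each genotype, against 21.6% of all genes in KO and 7.55% in WT cells, with 1 higher in KO cells (Elovl6, an elongase, 0.94) and none higher in WT cells. In KO untreated cells 5 were higher than in WT (18.0% of all genes), among them Fasn, the fatty acid synthase (0.86, edgeR adjusted p = 3.13e-06), and 1 was lower, Elovl6 (−1.15, 2.82e-08).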

How the data were processed

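RNA was sequenced from 16 libraries of Th17 cells, 4 in each of 4 groups. A single table deposited by the authors holds estimated counts for each gene, given as whole numbers. Salmon, DESeq2 and DESeq are named, with no version, per the submitters' processing notes. Build and annotation: not given in the sources used here. Of the 15571 identifiers, 15221 matched a gene symbol by identifier without version and 350 did not. Genes with near-identical copies or pseudogenes are uncertain, because estimated counts divide shared reads.

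The counts were tested as deposited in R 4.3.3 using edgeR 4.0.16 and limma 3.58.1. The fit used TMM scaling, filterByExpr, robust quasi-likelihood F tests on all 16 libraries without a replicate term, and Benjamini-Hochberg adjustment over 14985 genes. A gene was called at an adjusted p under 0.05, and "rose", "fell", "higher" and "lower" refer to such calls. CPM are counts scaled to the TMM library size (edgeR's cpm), standard errors are the log2 fold change over the square root of F, and 95% intervals assume a normal error. Alternatives were other scalings, filters and libraries, DESeq2 1.42.0, and replicate blocks. All 29 members are named, and of each other list up to 4 called genes with the smallest adjusted p per comparison, of which some are given. The members and lists were chosen with earlier results of these data known.

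Replicate numbers come from the sample titles. Deviations from the group means correlated at over 0.1 in all 4 same-numbered pairs for KO acetate with KO untreated (0.130 to 0.332) and with WT acetate (0.181 to 0.405), which were taken as paired, and not in all pairs elsewhere. Yet WT acetate 3 correlated more with KO acetate 4 (0.377) than with KO acetate 3 (0.181). WT acetate 4 likewise correlated more with KO acetate 3 (0.271) than with KO acetate 4 (0.196), so pairing of the acetate groups is uncertain. Replicates differed by more than counting noise in all 24 within-group pairs. The procedure was tested on simulated data. Targeted gene levels are not reported here, because the deleted part is not named. The summed level of the Th17 marker list is not reported here.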

Additional observations from a re-analysis of the deposited data

Results flagged for a closer look

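In 9 of the 116 combinations of a member and a group, 1 library stood apart from the other 3 by the Dixon criterion for 4 samples, which chance alone flags in about 5% of groups. WT untreated 1, a high-share library, was the low one for Acat2 (114 against 135 CPM in the next library), Hmgcs1 (385 against 510.0), Fdps (239 against 289), Lss (105 against 127) and Nsdhl (62.1 against 81.5), and it was the lowest of its group for 16 of the 19 enzymes. KO untreated 2 was low for Fdft1 (132 against 158 CPM). WT acetate 2 was high for Ebp (43.3 against 35.6 CPM), KO acetate 2 for Srebf2 (439.6 against 384) and KO untreated 4 for Nr1h2 (51.8 against 39.8). The acetate response of Soat1 differed between the genotypes by the interaction test (log2 difference 0.44, edgeR adjusted p = 0.0197). Causes were not tested.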

How the results depend on the processing

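Of 985 alternative values for the 51 called combinations of a member and a comparison, none changed direction. Counts of called members moved as follows, and the cause was not tested unless fewer samples were used. KO against WT untreated: 3 higher became 5 in DESeq2 and 7 in a fit of the 2 groups alone, with or without a replicate block, and 7 lower became 3 without the high-share libraries. Over left-out libraries these were 3 to 4 higher and 6 to 7 lower. KO against WT with acetate: 0 higher became 1 in DESeq2 and with the replicate block of the 2 groups, and 0 lower became 1 without the high-share libraries and 2 with that block, with 0 throughout over left-out libraries. Acetate in WT: 2 higher became 1 without the high-share libraries, with the replicate block of the 2 groups, and without WT acetate 3 and 4, and 0 to 1 over left-out libraries. The 9 lower became 4 without scaling, 5 with the block and 4 without WT acetate 3 and 4, and 5 to 14 over left-out libraries (5 without WT acetate 4, 14 without WT acetate 2). Acetate in KO: 15 lower became 5 without scaling and 7 with totals that leave out the unnamed gene, and 10 to 15 over left-out libraries, with 4 to 5 higher. KO acetate against WT untreated: 2 higher became 1 without the high-share libraries (1 to 2 over left-out libraries), and 8 lower became 2 without scaling, 5 with totals that leave out the unnamed gene, 14 in DESeq2 and 13 in the fit of the 2 groups (5 to 11 over left-out libraries, 5 without KO acetate 3). Interaction: 1 higher became 2 without scaling, 3 in DESeq2, 3 with the replicate block, 3 without the high-share libraries, 2 with the unnamed gene removed before scaling, 4 with totals that leave it out and 0 without WT acetate 3 and 4 (1 to 3 over left-out libraries), and 0 lower became 1 in DESeq2 and without the high-share libraries (0 to 1 over left-out libraries). Calls over all genes moved by over 1.5 times in KO against WT with acetate, where 73 higher and 77 lower became 28 and 50 without scaling, 317 and 434 in DESeq2, 182 and 226 with the replicate block, 388 and 489 with the block of the 2 groups, 13 and 3 in those groups without it, 213 and 322 without the high-share libraries and 7 and 4 without WT acetate 3 and 4, and the 73 became 129 at a mean of at least 5 CPM. Leaving out 1 library there gave 12 to 236 higher and 7 to 425 lower (12 and 9 without WT acetate 3, 13 and 9 without KO acetate 1, 17 and 7 without KO acetate 3, 20 and 22 without WT acetate 4, 34 and 25 without WT acetate 2, 134 and 237 without KO acetate 4, 236 and 425 without KO acetate 2), and acetate in WT went from 1132 to 734 lower without WT acetate 1. Without scaling the lower calls went from 1132 to 558 (acetate in WT), 3236 to 2085 (acetate in KO), 2019 to 1254 (KO acetate against WT untreated) and 830 to 442 (interaction). Without the high-share libraries KO against WT untreated went from 2699 and 2782 to 1577 and 1784 and the interaction from 955 and 830 to 546 and 464, and totals without the unnamed gene took its 955 to 1479. The replicate block over all 16 libraries moved no other count of called members by over 1.5 times. Of the 16 libraries, 8 correlated best with a library of their own number. The block in 2 groups, the removal of WT acetate 3 and 4 and of the unnamed gene were chosen after seeing the data. Mylip could not be tested at a mean of at least 5 CPM.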
